A study of Mus musculus with 48 samples.

Results

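The 45 genes described here encode the machinery that copies DNA in S phase, together with the factors that supply its nucleotides, start it and package its product. They were picked by symbol, and all 45 were found among the 49568 genes of the RNA-seq count table of RAW264.7, a mouse macrophage cell line. The list was made with earlier results of these data known, so its shares beside those of all genes are descriptions. The cells were cultured for 72 h in 8 groups. PBS was the control, LE, SE and PE were the synthetic peptides at 100 µg/ml, and IFN-γ was given at 5 ng/ml alone or with each peptide. LE, SE and PE are short stretches of the HLA-DR β chain: LE is encoded by a lupus-risk allele, SE by a rheumatoid arthritis-risk allele, and PE carries a motif of alleles linked to protection. All groups are of 1 cell line, which stands for macrophages only as far as a proliferating line can. Each group held 3 libraries in the letter-labelled series used throughout (24 libraries, 16498562 to 26929356 counts each). The study describes these and a further series of libraries together as biological replicates from independent experiments. The labels do not say which library came from which culture or experiment, and the letter-labelled libraries may share 1 experiment. The p-values therefore measure the spread between these libraries.

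Replication is prepared in G1, when the origin recognition complex with Cdc6 and Cdt1 loads the MCM ring on DNA. In S phase Cdc45 and the GINS complex turn the ring into an active helicase. Polymerase α-primase starts the new strands, and polymerase δ and polymerase ε, held by the clamp Pcna, copy the opened strands. Many of these genes are targets of E2F factors, which cyclin E helps to release from the retinoblastoma protein. IFN-γ, the main activating cytokine of macrophages, is known to slow the growth of these cells.

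Before the comparisons, the labels were checked on 20 known IFN-γ targets. In the letter-labelled libraries their mean level was 7.06 to 7.52 log2 CPM (CPM is a count scaled to the size of its library) with IFN-γ and 1.67 to 2.17 without it, so no library went against its label. In a further 24 libraries with HLA-numbered labels, 12 went against their IFN-γ label, and these libraries were left out of the comparisons. In the count table each HLA column stands to the right of letter columns of another label. The level of the IFN-γ targets went with the IFN-γ treatment of those letter columns in 24 of 24 HLA columns, so the HLA labels may be exchanged. No column was given another group. The RNA came from macrophages by its markers: all 10 macrophage markers were measured (summed level 7037 to 13262 CPM), and T cell, B cell, epithelial, endothelial and neutrophil markers stayed under 1 CPM each. Of the 6 osteoclast markers, Calcr was under 1 CPM everywhere, and the mean summed level was 365 CPM with PBS, 110 CPM with IFN-γ, 185 CPM with LE+IFN-γ, 165 CPM with SE+IFN-γ and 116 CPM with PE+IFN-γ. Of 3 fibroblast markers only Pdgfra passed 1 CPM, with a summed level of at most 1.84 CPM. The part of these levels in the results was not tested.

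Promoters, taken from RefSeq (GRCm38.p6) as the 250 bases before to 50 bases after each start, were found for 37 of the 45 genes. An E2F-type word (TTTCCCGC, TTTCGCGC, TTTGCCGC or TTTGGCGC, on both strands) was present in 14 of the 37 genes (37.8%), against 2.6% of all 27025 genes of the promoter table. The CCAAT word, also on both strands, was present in 23 of the 37 (62.2%), against 41.1% of all genes. One E2F-type match, in Mcm7, overlapped a CCAAT match. The E2F-type word was found in 11 of the 23 genes with a promoter that passed the test for a rise with LE+IFN-γ and in 3 of the 14 that did not. The promoters of 3 genes that rose with LE+IFN-γ (Mcm6, Mcm5 and Pola1) and of one that did not (Mcm2, of the same ring as Mcm6 and Mcm5) are shown to let their words be compared, with the E2F-type word in capitals. The promoters shown do not stand for the whole list. Pcna and Rrm1, among others, rose without a match, and Cdc6, Gins3 and Pole2 held a match but did not pass. A match is a description of letters, and its absence from the window says nothing of the factor.
Mcm6 promoter, chr1:128359656-128359955, minus strand: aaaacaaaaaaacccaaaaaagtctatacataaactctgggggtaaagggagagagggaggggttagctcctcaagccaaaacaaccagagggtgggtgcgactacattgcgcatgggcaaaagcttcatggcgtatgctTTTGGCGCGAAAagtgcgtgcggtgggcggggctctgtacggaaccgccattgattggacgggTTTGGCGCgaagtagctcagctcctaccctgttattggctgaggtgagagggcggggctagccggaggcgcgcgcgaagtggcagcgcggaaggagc
Mcm5 promoter, chr8:75109259-75109558, plus strand: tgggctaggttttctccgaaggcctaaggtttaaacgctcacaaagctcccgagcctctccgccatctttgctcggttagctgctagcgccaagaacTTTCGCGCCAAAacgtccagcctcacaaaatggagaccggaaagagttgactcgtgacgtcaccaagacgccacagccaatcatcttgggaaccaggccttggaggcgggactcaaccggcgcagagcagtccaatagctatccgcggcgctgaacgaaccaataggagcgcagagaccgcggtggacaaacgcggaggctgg
Pola1 promoter, chrX:93632106-93632405, minus strand: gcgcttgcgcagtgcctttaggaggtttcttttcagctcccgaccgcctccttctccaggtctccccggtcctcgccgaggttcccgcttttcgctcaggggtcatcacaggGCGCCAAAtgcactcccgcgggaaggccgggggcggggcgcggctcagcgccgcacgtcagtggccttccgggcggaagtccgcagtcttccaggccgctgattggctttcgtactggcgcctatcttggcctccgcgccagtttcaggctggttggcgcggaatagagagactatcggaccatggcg
Mcm2 promoter, chr6:88898731-88899030, minus strand: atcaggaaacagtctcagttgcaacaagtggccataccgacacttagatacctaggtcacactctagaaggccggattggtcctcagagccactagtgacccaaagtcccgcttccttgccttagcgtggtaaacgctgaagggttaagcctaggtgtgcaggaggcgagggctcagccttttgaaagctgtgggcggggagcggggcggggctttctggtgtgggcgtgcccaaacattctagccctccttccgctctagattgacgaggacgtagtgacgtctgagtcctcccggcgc
Mcm6 and Mcm5 each held a pair of overlapping words on opposite strands, so that 1 unbroken run of capitals marks 2 matches. Mcm6 held a further match nearer to its start, Pola1 held 1 match, and Mcm2 held none.

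The level of the genes as a group was lowest with IFN-γ alone and highest with LE+IFN-γ. Over the 45 genes the mean log2 CPM of the PBS group was 5.20 ± 0.23 (SD, n = 3 libraries, as for all groups). The LE group stood at 5.34 ± 0.07, the SE group at 5.27 ± 0.17 and the PE group at 5.31 ± 0.17. With IFN-γ it was 5.02 ± 0.07 alone, 5.71 ± 0.07 with LE, 5.38 ± 0.06 with SE and 5.14 ± 0.01 with PE. The 3 LE+IFN-γ libraries (5.66, 5.68 and 5.80) lay above all other 21 libraries, of which the highest was 5.46. The PBS libraries were spread widely (5.45, 5.16 and 5.00) and overlapped every peptide group without IFN-γ. The genes took 0.309% to 0.333% of all counts with LE+IFN-γ and 0.192% to 0.210% with IFN-γ alone. Of the 45 genes, 32 had their highest group mean with LE+IFN-γ and 19 their lowest with IFN-γ alone. In bulk RNA, fewer cells in S phase and less of these transcripts per cell cannot be told apart.

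**Figure D1:**
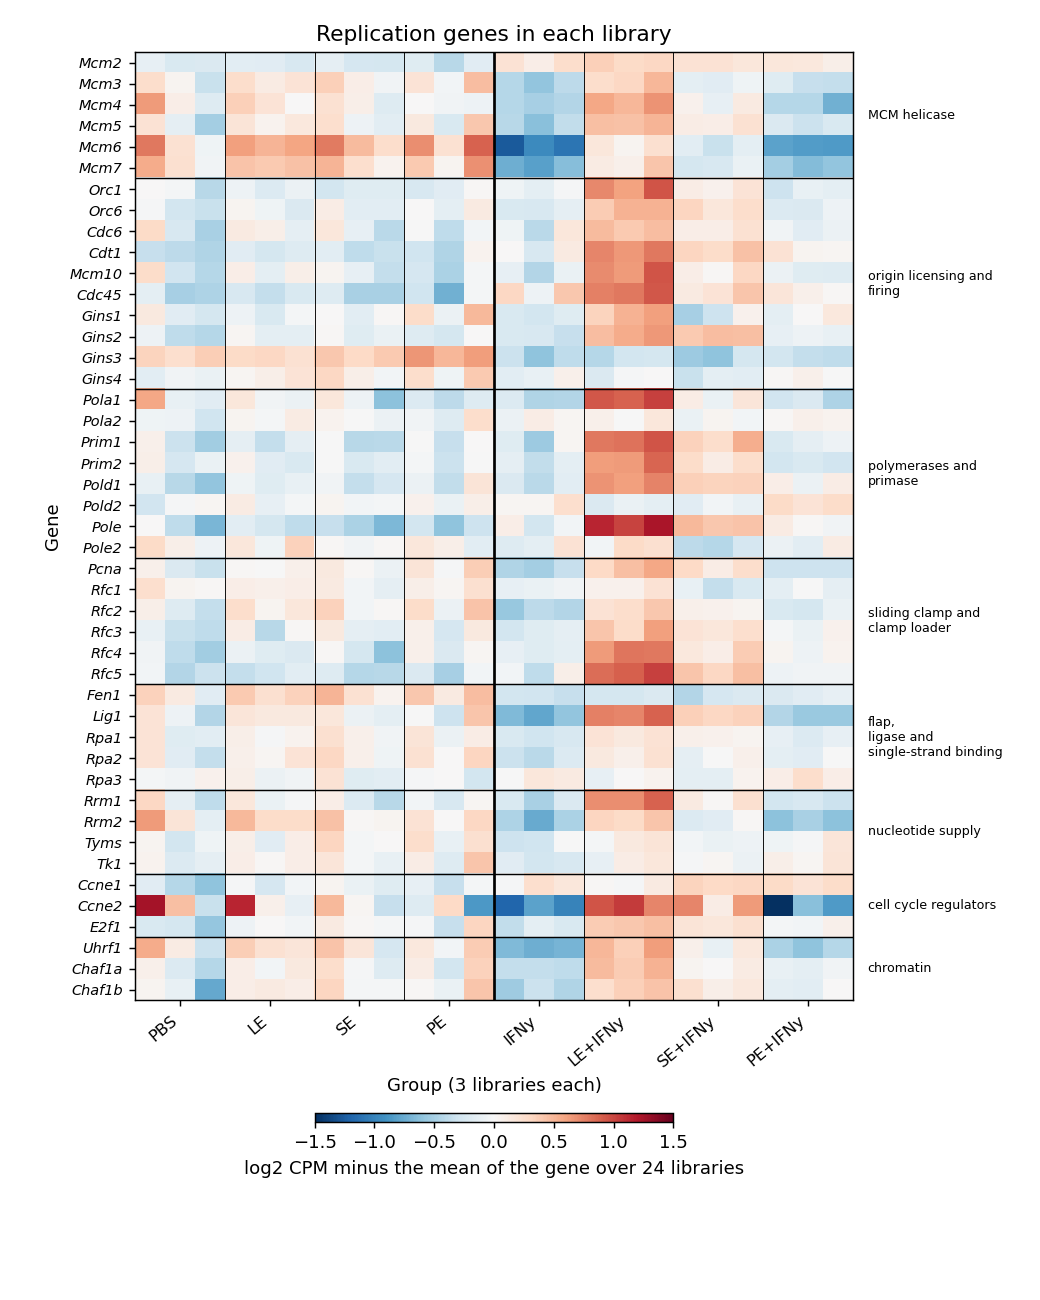
Level of the 45 genes in each of the 24 libraries, as log2 CPM minus the mean of the gene over all libraries; columns are the 8 groups of 3 libraries, IFNy stands for IFN-γ, rows are genes in blocks by role, and the heavy line parts the groups without IFN-γ from those with it. The LE+IFNy block is the reddest, while Gins4, Pola2, Pold2, Rpa3 and Ccne1 stay pale in it.

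Per kilobase of the longest annotated transcript, the levels with IFN-γ alone differed widely. The clamp Pcna was highest at 76.6 CPM per kb, followed by Mcm2 (61.5 CPM per kb), Pold2 (53.9 CPM per kb) and the licensing factor Cdt1 (44.7 CPM per kb). The cyclin Ccne2 was lowest at 0.455 CPM per kb, under the primase partner Pola1 (2.4 CPM per kb) and Orc1 (3.38 CPM per kb). Ccne2 also had the lowest count of any gene in any library, 20 counts, so its folds have the widest errors.

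The first comparison asks what IFN-γ alone did to these genes. With IFN-γ, 8 of the 45 genes fell and none rose, by edgeR's quasi-likelihood test at an adjusted p under 0.05 and a fold over 1.5. These were the helicase subunits Mcm4, Mcm6 and Mcm7, the GINS subunit Gins3, the ligase Lig1, the ribonucleotide reductase subunit Rrm2, the cyclin Ccne2 and Uhrf1, which marks newly copied DNA for methylation. Over all 12242 genes tested, 8.28% were called lower and 9.79% higher. The median log2 fold change was -0.14 over the 45 genes and -0.01 over all genes. At an unadjusted p under 0.05, 20 of the 45 genes passed in either direction, against 5892 of all 12242 genes, a similar share. RLE scaling and DESeq2 each called 1 gene higher. Without PBS replicate 1, 6 genes were called lower and 2 higher. Over 12 alternatives of the processing or the libraries used, the fall of Lig1 was held in 9 and that of Mcm4 in 11. Cdc45 stood closest below the limit on fold with a log2 fold change of 0.58 (adjusted p = 0.00458).

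Ccne2, whose cyclin E2 drives entry into S phase with Cdk2 (chromosome 4, 11191351 to 11204779, GRCm38), gave the largest fall. It stood at 6.44, 3.72 and 2.15 CPM in the PBS libraries and at 1.19, 1.56 and 1.36 CPM with IFN-γ. The 2 groups did not overlap, and the log2 fold change was -1.59 ± 0.36 (standard error, adjusted p = 0.00444). Its paralog Ccne1, the other E-type cyclin, moved the opposite way, from 20.2 ± 3.1 to 29.1 ± 2.65 CPM (SD, n = 3), a log2 fold change of 0.52 with an adjusted p of 0.00515 that stayed under the limit on fold.

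Mcm6, a subunit of the helicase ring (chromosome 1, 128331590 to 128359664), stood at 144, 97.9 and 80.0 CPM with PBS and at 34.8, 43.0 and 39.1 CPM with IFN-γ. Every IFN-γ library lay below every PBS library (log2 fold change -1.46 ± 0.18, adjusted p = 6.2e-05). Mcm7, of the same ring, fell from 99.1, 79.5 and 65.1 CPM to 40.8, 38.4 and 43.4 CPM (log2 fold change -0.99 ± 0.13, adjusted p = 0.000103). Mcm2, again of the same ring, was at 165 ± 6.88 CPM with PBS and 215 ± 12.6 CPM with IFN-γ (log2 fold change 0.38 ± 0.07, adjusted p = 0.00119, fold under 1.5). For transcripts of Mcm6 and Mcm2, the only pair of the 6 subunits taken as a ratio, the ranges with PBS and IFN-γ did not overlap. The log2 of the Mcm6 to Mcm2 ratio was -1.01 to -0.26 in the PBS libraries and -2.65 to -2.23 in the IFN-γ libraries. An exact permutation test of 3 against 3 libraries gave p = 0.1, the smallest this design allows (two-sided). This and the other ratios given here were chosen after their values were seen.

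The next comparisons are those of each peptide with IFN-γ against IFN-γ alone, which share the 3 IFN-γ libraries and 1 estimate of the spread. With LE+IFN-γ, 30 of the 45 genes rose and none fell. Of all 12720 genes tested, 9.58% were called higher and 754 genes lower. The median log2 fold change was 0.78 over the 45 genes and -0.01 over all genes. On the adjusted p alone, 36 of the 45 were higher, against 25.7% of all genes. The genes that rose came from every role. They were 5 of 6 helicase subunits, 7 of 10 origin factors, 5 of 8 polymerase and primase subunits, 5 of 6 clamp and clamp loader genes, 1 of 5 genes for flap removal, ligation and single-strand binding, 2 of 4 for nucleotide supply, 2 of 3 cell cycle regulators and 3 of 3 chromatin factors.

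The gene with the largest rise was again Ccne2, at 5.24, 5.62 and 4.51 CPM with LE+IFN-γ against 1.19, 1.56 and 1.36 CPM with IFN-γ. It was 3.74-fold higher (log2 fold change 1.90 ± 0.22, adjusted p = 1.48e-06), and the groups were far apart. Lig1, which seals the nicks between Okazaki fragments (chromosome 7, 13277283 to 13311433), stood at 113, 111 and 124 CPM against 42.1, 38.9 and 44.2 CPM. That was 2.78-fold higher (log2 fold change 1.47 ± 0.06, adjusted p = 1.42e-11), and its lowest LE+IFN-γ library was also above every library without IFN-γ, of which the highest had 89.2 CPM. Pola1, the catalytic subunit of the polymerase that extends the primer (chromosome X, 93304767 to 93632155), stood at 31.4, 30.3 and 33.5 CPM against 14.3, 12.04 and 12.1 CPM. It was 2.47-fold higher (log2 fold change 1.30 ± 0.09, adjusted p = 6.07e-09).

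Mcm6 stood at 93.6, 85.6 and 98.6 CPM with LE+IFN-γ, above the 34.8, 43.0 and 39.1 CPM with IFN-γ (log2 fold change 1.25 ± 0.08, adjusted p = 8.61e-10). Its level lay within the range of the PBS libraries (80.0 to 144 CPM). Uhrf1 also overlapped its PBS libraries, with 76.0, 68.8 and 83.2 CPM with LE+IFN-γ, 34.0, 32.3 and 33.3 CPM with IFN-γ and 43.2 to 79.5 CPM with PBS (log2 fold change against IFN-γ 1.19 ± 0.08, adjusted p = 2.72e-09). Other genes rose above all other groups. Pole, the catalytic subunit of the leading-strand polymerase, stood at 78.2, 71.3 and 82.6 CPM with LE+IFN-γ and at no more than 49.5 CPM in any other library (log2 fold change 1.20 ± 0.08, adjusted p = 4.3e-09). Rfc5, a small subunit of the clamp loader, stood at 63.3, 65.9 and 72.0 CPM with LE+IFN-γ against 34.5, 27.2 and 37.8 CPM with IFN-γ (log2 fold change 1.02 ± 0.09, adjusted p = 6.09e-08). Rrm1, the large subunit of ribonucleotide reductase, stood at 139, 139 and 159 CPM against 73.1, 61.4 and 73.8 CPM (log2 fold change 1.07 ± 0.08, adjusted p = 5.45e-09). Mcm10, which helps the helicase to start, stood at 44.9, 42.8 and 52.6 CPM against 25.2, 20.2 and 25.5 CPM (log2 fold change 0.98 ± 0.10, adjusted p = 2.85e-07).

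**Figure D2:**
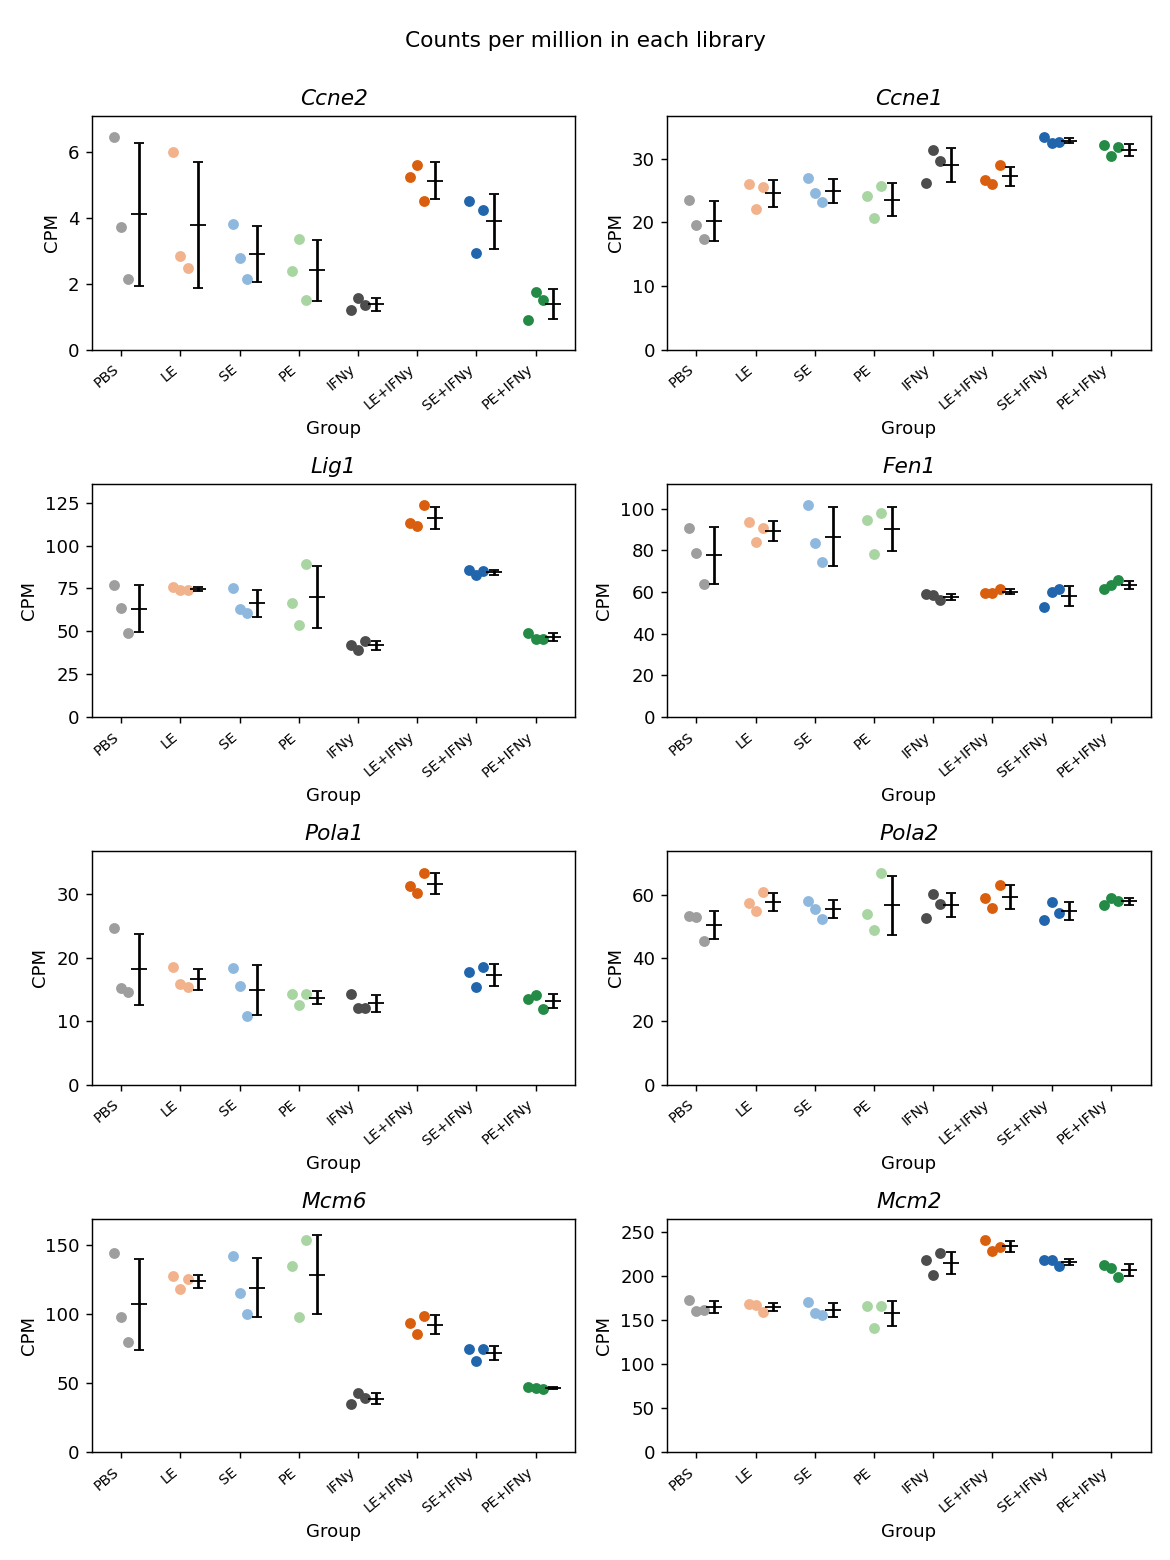
CPM of 8 genes in each library by group (points, 3 libraries per group; IFNy stands for IFN-γ), with the mean and SD as black bars. Ccne2, Lig1, Pola1 and Mcm6 on the left are higher in all 3 LE+IFNy libraries than in any IFNy library, while Ccne1 and Pola2 on the right overlap between these groups, and Fen1 and Mcm2 differ by log2 fold changes of 0.06 and 0.12.

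Within several complexes the transcripts of the subunits parted. All 3 polymerases showed a rise of the catalytic subunit and little change of the second subunit with LE+IFN-γ. The log2 fold changes were 1.30 for Pola1 and 0.06 for Pola2 (95% interval -0.07 to 0.20), 0.93 for Pold1 and -0.26 for Pold2 (-0.40 to -0.13), and 1.20 for Pole and 0.20 for Pole2 (-0.06 to 0.45). Both primase subunits rose, Prim1 by 1.06 and Prim2 by 0.93. In the GINS complex Gins1 (0.72) and Gins2 (0.83) rose, while Gins3 (0.11) and Gins4 (-0.01) did not pass. In the clamp loader the 4 small subunits Rfc2 to Rfc5 rose by 0.63 to 1.02, and the large subunit Rfc1 did not pass (0.21). Mcm3 to Mcm7 rose by 0.83 to 1.25, and Mcm2 did not pass (0.12, 95% interval 0.01 to 0.23). The log2 ratio of Pola1 to Pola2 was -0.92 to -0.88 in the LE+IFN-γ libraries and -2.32 to -1.88 in the IFN-γ libraries, and that of Pold1 to Pold2 was 0.22 to 0.39 and -0.93 to -0.74. Neither pair of ranges overlapped, and the exact permutation test gave p = 0.1 for each, the smallest 3 against 3 libraries allow.

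The remaining genes that did not pass with LE+IFN-γ were the licensing factor Cdc6 (log2 fold change 0.53), the flap nuclease Fen1 (0.06), the single-strand binding subunits Rpa1 (0.45), Rpa2 (0.46) and Rpa3 (-0.13), the nucleotide enzymes Tyms (0.31) and Tk1 (0.28), and Ccne1 (-0.10). In all, the 95% interval of 13 of the 45 genes lay within a 1.5-fold change in either direction. Among longer transcripts the log2 fold change was higher over all genes (Spearman's rho with transcript length 0.217, over the 97.2% of tested genes with a length) and over the 45 genes (0.469), which share libraries and depth. The median transcript length was 3167 bases for the 30 genes that rose and 2490 bases for the other 15. With the trend on length and GC content subtracted, 29 genes still passed.

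With SE+IFN-γ, 10 of the 45 genes rose and none fell, against 5.01% of all genes called higher and 2.38% lower. The median log2 fold change was 0.40 over the 45 genes and -0.01 over all genes, and on the adjusted p alone 29 genes were higher, against 16.7% of all genes. The genes that rose were Mcm5, Mcm6, Gins2, Prim1, Pold1, Pcna, Lig1, Ccne2, Uhrf1 and Chaf1b, a subunit of the factor that lays histones on new DNA. Ccne2 stood at 4.51, 2.94 and 4.24 CPM, above the 1.19 to 1.56 CPM with IFN-γ alone (log2 fold change 1.504 ± 0.23, adjusted p = 6.11e-05). Lig1 stood at 85.5, 82.8 and 85.2 CPM (log2 fold change 1.01 ± 0.06, adjusted p = 2.32e-09). Mcm6 stood at 74.7, 66.1 and 75.2 CPM (log2 fold change 0.88 ± 0.08, adjusted p = 1.12e-07). For each of these, every SE+IFN-γ library was above every IFN-γ library.

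With PE+IFN-γ none of the 45 genes was called, against 0.629% of all genes in either direction. By edgeR 18 genes had an unadjusted p under 0.05, against 3580 of all 12720 genes, and DESeq2 called none. On the adjusted p alone 8 genes were higher, against 5.43% of all genes. The intervals were narrow enough to bound the effect: the 95% interval of all 45 genes lay within a 1.5-fold change in either direction. The highest upper bound was 0.58 on the log2 scale, for Ccne2 (0.893, 1.75 and 1.504 CPM), which has the fewest counts. The median log2 fold change was 0.12, and the point estimates ran from -0.13 to 0.34.

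**Figure D3:**
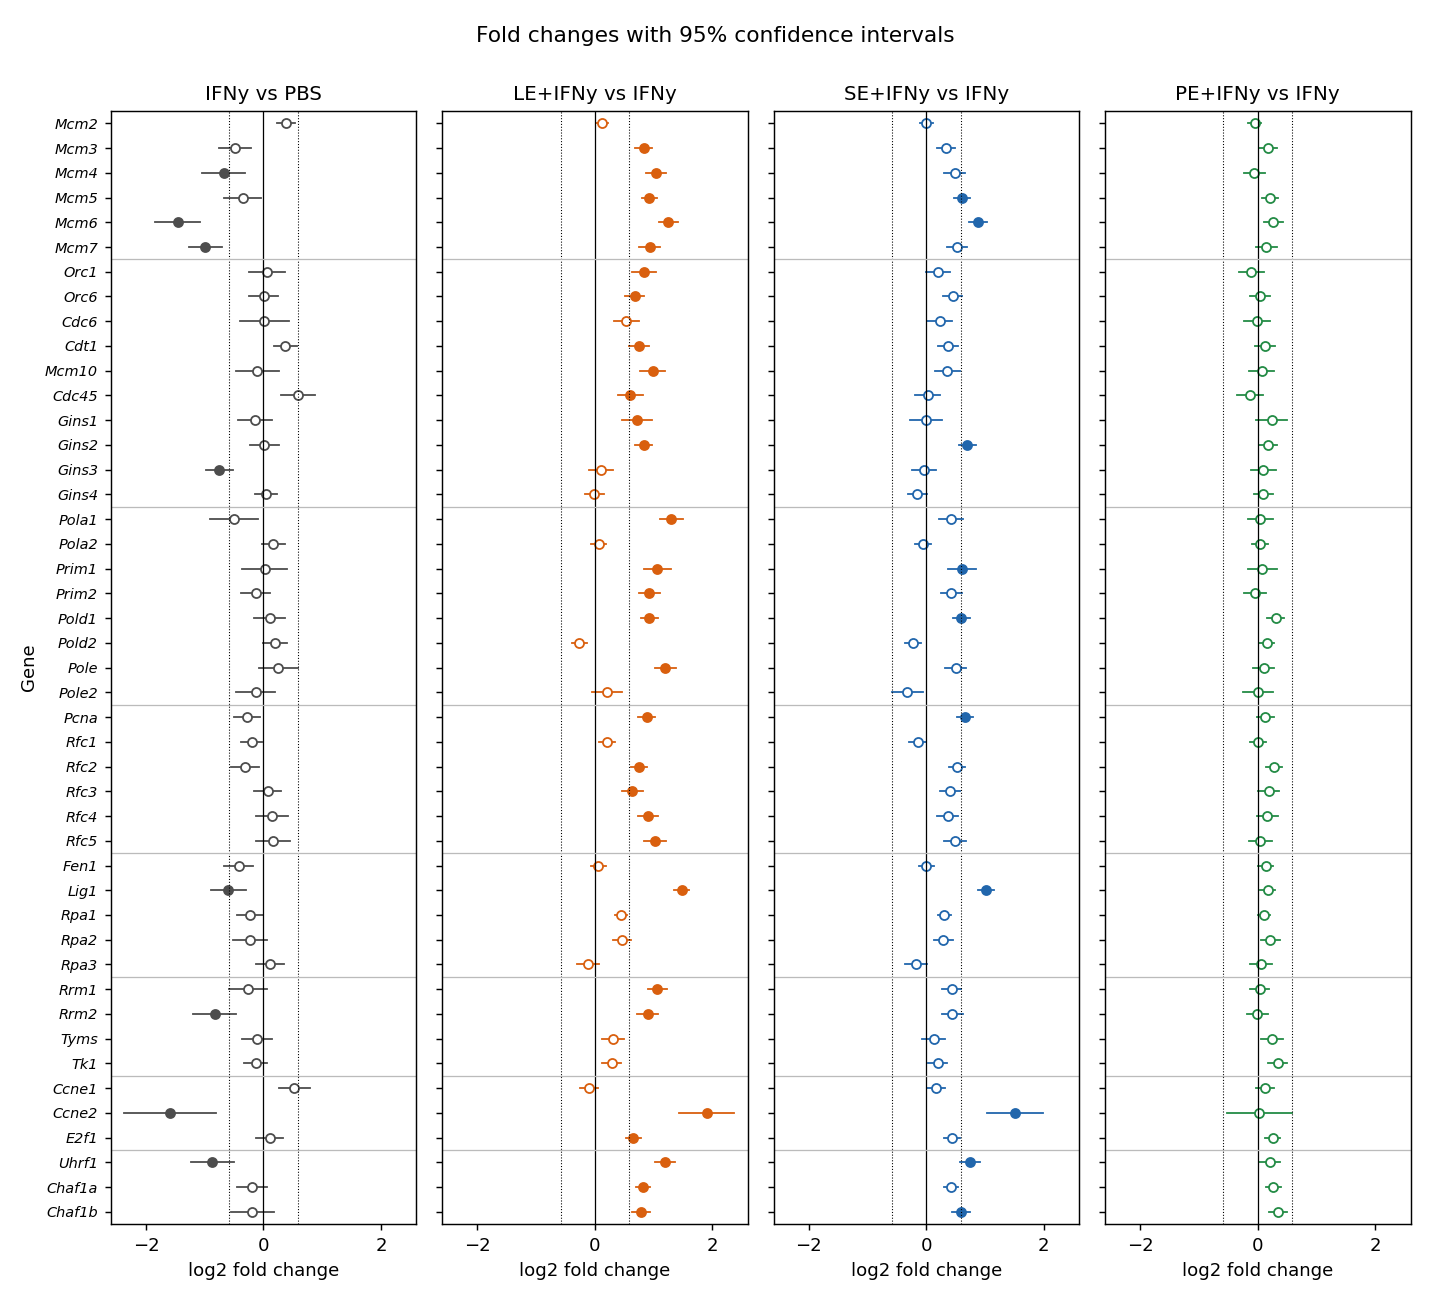
Log2 fold change of each of the 45 genes (points) with its 95% confidence interval (lines) for IFN-γ against PBS and for each peptide plus IFN-γ against IFN-γ (IFNy in the titles), with filled points for genes called and dotted lines at a 1.5-fold change. Called points are 8 lower in the first panel, 30 higher with LE, 10 higher with SE and 0 with PE, where every interval stays between the dotted lines.

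Pairs of peptides were set against one another at the same dose and time with IFN-γ, in 3 pairs from the same model, with p-values adjusted over all genes of each pair. LE+IFN-γ was above SE+IFN-γ for 6 genes and below for none (3.31% of all genes called higher, 206 of 12720 lower). These were Orc1, Mcm10, Gins1, Pola1, Pole and Rrm1. The median log2 difference was 0.35 over the 45 genes and -0.01 over all genes. Pola1 differed most, with 31.4, 30.3 and 33.5 CPM for LE against 17.8, 15.4 and 18.6 CPM for SE (log2 difference 0.88 ± 0.09, adjusted p = 6.49e-06). Gins1, a subunit of the helicase activator, stood at 16.1, 18.4 and 19.7 CPM against 9.07, 10.3 and 13.4 CPM (log2 difference 0.72 ± 0.12, adjusted p = 0.00031). Pole stood at 78.2, 71.3 and 82.6 CPM against 49.5, 46.7 and 47.7 CPM (log2 difference 0.69 ± 0.08, adjusted p = 1.82e-05). For Ccne2 the log2 difference was 0.40 ± 0.19 (95% interval -0.0043 to 0.80, adjusted p = 0.114), which does not show that the peptides act alike. For 27 genes the 95% interval of the difference lay within a 1.5-fold change. The count was 3 without LE+IFN-γ replicate 3. The genes called are long, with a median transcript of 5107 bases against 2878 bases for the other 39, and with the trend on length and GC content subtracted 4 were called.

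LE+IFN-γ was above PE+IFN-γ for 24 genes and below for none, with a median log2 difference of 0.63. Over all genes 12.7% were called higher and 1137 of 12720 lower. Lig1 differed by 1.31 on the log2 scale, with 113, 111 and 124 CPM for LE against 49.3, 45.4 and 45.6 CPM for PE (adjusted p = 4.92e-11). Over all genes SE+IFN-γ against PE+IFN-γ called 5.25% higher and 298 of 12720 lower, and the median log2 difference over the 45 genes was 0.24. SE+IFN-γ was above for 3 of the 45, a share close to the background, and below for none. These genes were Mcm6 (0.61), Lig1 (0.84) and Ccne2 (1.48). The count was 7 without SE+IFN-γ replicate 2. The group means stood in the order LE, SE, PE, IFN-γ alone for 26 of the 45 genes, a description only.

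**Figure D4:**
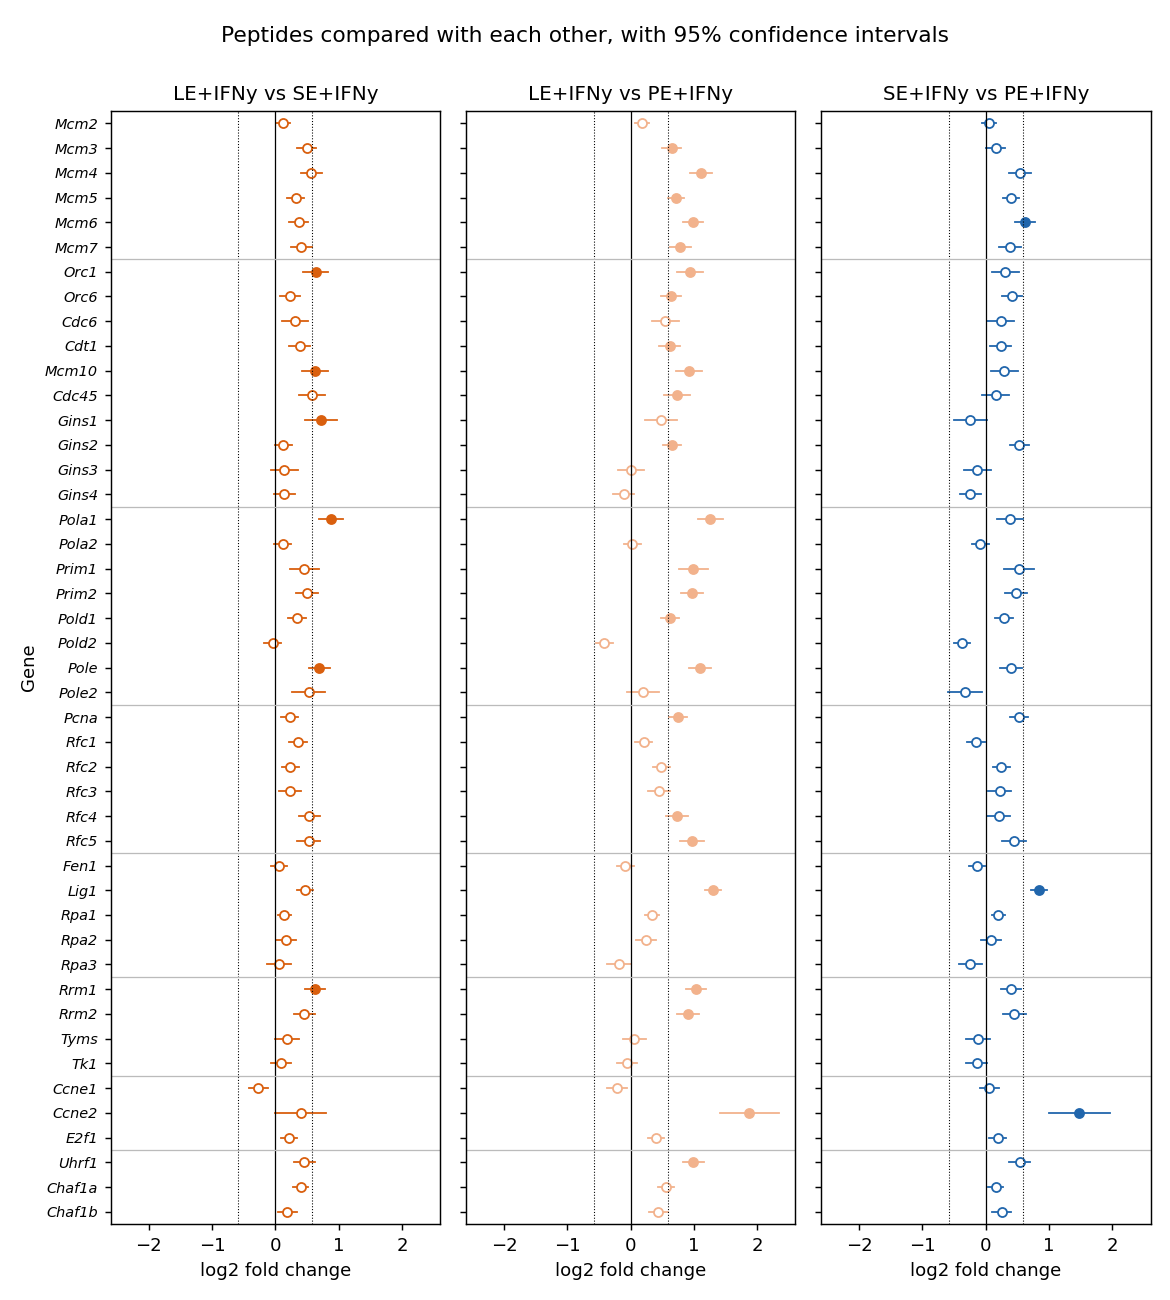
Log2 difference of each of the 45 genes between 2 peptides with IFN-γ (points, filled where called) with its 95% confidence interval, and dotted lines at a 1.5-fold difference. LE+IFNy lies above SE+IFNy for 6 called genes and above PE+IFNy for 24, and SE+IFNy lies above PE+IFNy for 3.

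Without IFN-γ the peptides moved none of these genes past the test. LE against PBS called 0 (0.0242% of all genes in either direction), SE against PBS called 0 (1.92%) and PE against PBS called 0 (3.13%), with edgeR and with DESeq2. At an unadjusted p under 0.05 the numbers were 3, 2 and 5 genes, against 1953, 3975 and 4405 of all 12420 genes. Each was a smaller share than over all genes. Leaving the low counts unfiltered called 1 gene lower with PE. The 3 PBS libraries were spread widely, and the 95% intervals of 40, 41 and 35 of the 45 genes lay within a 1.5-fold change. Those of Ccne2 did not, reaching from -0.97 to 0.72 for LE on the log2 scale.

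Each peptide with IFN-γ was also compared with the same peptide alone. LE+IFN-γ against LE had 15 genes higher and 1 lower, with 19.1% of all genes called higher and 15.9% lower. Unlike the rise against IFN-γ alone, these did not come from every role. Called were 0 of 6 helicase subunits, 0 of 3 cell cycle regulators and 0 of 3 chromatin factors. Higher were 6 of 10 origin factors and 5 of 8 polymerase and primase subunits. The polymerase subunit Pole rose most, from 31.7, 29.4 and 27.2 CPM with LE to 78.2, 71.3 and 82.6 CPM with LE+IFN-γ (log2 fold change 1.39 ± 0.09, adjusted p = 5.3e-11), and Gins3 fell by 0.60 on the log2 scale, a call close to the limit on fold that was held in 7 of 12 alternatives and not with DESeq2 or without the filter on low counts. SE+IFN-γ against SE had 5 genes higher (Cdt1, Cdc45, Prim1, Pole and Rfc5) and 2 lower (Mcm6 and Gins3), with 15.1% of all genes called higher and 11.3% lower. Both counts are, as shares of the 45 genes, under the background. PE+IFN-γ against PE had 0 genes higher and 5 lower, Mcm6, Mcm7, Gins3, Rrm2 and Uhrf1. Of all 12947 genes, 1573 were called higher and 8.82% lower, so the share called lower was near the background. Mcm6 stood at 135, 97.7 and 154 CPM with PE and at 47.7, 46.6 and 46.1 CPM with PE+IFN-γ (log2 fold change -1.45 ± 0.13, adjusted p = 6.74e-09). The count was 8 without PE replicate 2.

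Whether the effect of IFN-γ differed with a peptide present was tested as an interaction over all 24 libraries. It was called higher for 22 of the 45 genes with LE (11.3% of all genes) and for 8 with SE (5.08%). With PE it was called for 0 of the 45, by edgeR and DESeq2, as for 0% of all genes. By edgeR 0 of the 45 had an unadjusted p under 0.05, against 1073 of all 13096 genes. For Ccne2 the interaction was 2.02 ± 0.50 on the log2 scale with LE (adjusted p = 0.00251) and 2.01 ± 0.51 with SE (adjusted p = 0.00683). The SE count ran from 2 (without PBS replicate 1) to 13 (without PBS replicate 3 or without SE replicate 1), and was 3 without SE replicate 3, 4 without SE+IFN-γ replicate 1 or 3, and 5 without IFN-γ replicate 2.

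The other genes of the pathway came from further lists, whose counts are to be read against the 9.58% of all genes called higher with LE+IFN-γ and the 5.01% higher and 2.38% lower with SE+IFN-γ. With PE+IFN-γ none of their genes was called by edgeR or DESeq2, while 10 of 32 fork and origin genes, 4 of 19 checkpoint and repair genes, 8 of 28 genes of G1/S control, 1 of 10 histone and DNA methylation genes and 5 of 25 mitosis genes had an unadjusted p under 0.05 by edgeR. Over all genes 3580 of 12720 passed this unadjusted limit, so the shares of these lists were near the background or under it. Of the 32 other fork and origin genes, 11 rose with LE+IFN-γ against IFN-γ and 4 with SE+IFN-γ. The largest was Cdc7, the kinase that fires origins, at 16.1, 19.1 and 21.2 CPM with LE+IFN-γ against 6.38, 6.46 and 6.34 CPM with IFN-γ (log2 fold change 1.55 ± 0.11, adjusted p = 6.97e-09). Of 19 fork checkpoint and repair genes tested, 13 rose with LE+IFN-γ and 1 with SE+IFN-γ. That one was the checkpoint kinase Chek1, which also led with LE+IFN-γ, at 15.4, 14.7 and 16.8 CPM against 5.15, 4.75 and 4.83 CPM (log2 fold change 1.67 ± 0.12, adjusted p = 3.97e-09), and the Fanconi genes Fanci (1.17) and Fancd2 (1.13) rose too. In this list 9 genes were higher with LE+IFN-γ than with SE+IFN-γ, against 3.31% of all genes, without the trend on length and GC content subtracted. Over 12 other nucleotide genes the median log2 fold change was 0.12 with LE+IFN-γ, 0.08 with SE+IFN-γ and 0.02 with PE+IFN-γ, against 0.78, 0.40 and 0.12 over the 45 genes. Of 10 genes for histone supply and DNA methylation, 4 rose with LE+IFN-γ (Hells 1.42, Hat1 1.05, Dnmt1 0.72 and Nasp 0.60). With SE+IFN-γ 0 of the 10 were called by edgeR or DESeq2. By edgeR 6 of the 10 had an unadjusted p under 0.05, against 5386 of all 12720 genes.

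Of 28 genes of G1/S control tested, 7 rose with LE+IFN-γ, a larger share than the 9.58% of all genes. With SE+IFN-γ 2 rose and 1 fell, shares near those of all genes. The growth-promoting factor Myc stood at 63.5, 59.3 and 68.0 CPM with LE+IFN-γ, at 43.4, 37.1 and 39.9 CPM with SE+IFN-γ, at 11.9, 10.8 and 10.4 CPM with PE+IFN-γ and at 11.9, 7.34 and 14.8 CPM with IFN-γ alone. Its log2 fold change against IFN-γ was 2.49 ± 0.15 with LE (adjusted p = 6.45e-10) and 1.83 ± 0.15 with SE (adjusted p = 5.6e-08). The repressive E2F genes E2f8 (1.23) and E2f7 (0.91) also rose with LE+IFN-γ, as did E2f1 (0.65), one of the 45.

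Of 25 genes of spindle and chromosome segregation, 7 rose with IFN-γ against PBS, where 8 of the 45 replication genes fell. Over all genes that comparison called 9.79% higher and 8.28% lower. Against IFN-γ alone, 10 of the 25 rose with LE+IFN-γ, while 9 fell with SE+IFN-γ, where 10 of the 45 replication genes rose. In the direct comparison, 23 of 25 were higher with LE+IFN-γ than with SE+IFN-γ (median log2 difference 0.96), against 6 of the 45 replication genes (0.35). Over all genes the direct comparison called 3.31% higher. Its log2 differences went with transcript length (Spearman's rho 0.356) and with GC content (-0.466) over all genes. That trend was not subtracted for the mitosis list. The proliferation marker Mki67 stood at 435, 396 and 510 CPM with LE+IFN-γ, at 203, 176 and 191 CPM with SE+IFN-γ and at 241, 159 and 258 CPM with IFN-γ alone. The spindle checkpoint kinase Bub1 stood at 71.4, 74.6 and 83.5 CPM, at 29.7, 25.7 and 37.5 CPM and at 35.0, 22.0 and 31.6 CPM in the same order. The SE+IFN-γ and IFN-γ libraries overlapped for both genes, and the LE+IFN-γ libraries lay above them. IFN-γ replicate 2 stood apart for the mitosis list, with a mean log2 CPM of 5.32 against 5.80 and 5.86 in the other IFN-γ libraries and 5.15 to 5.43 in the PBS libraries. Without it, 9 mitosis genes rose with IFN-γ against PBS, 7 rose with LE+IFN-γ and 13 fell with SE+IFN-γ. Leaving out any 1 library gave 5 to 9, 7 to 12 and 6 to 13 genes in these comparisons. The difference between the replication and mitosis lists was not itself tested.

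**Figure D5:**
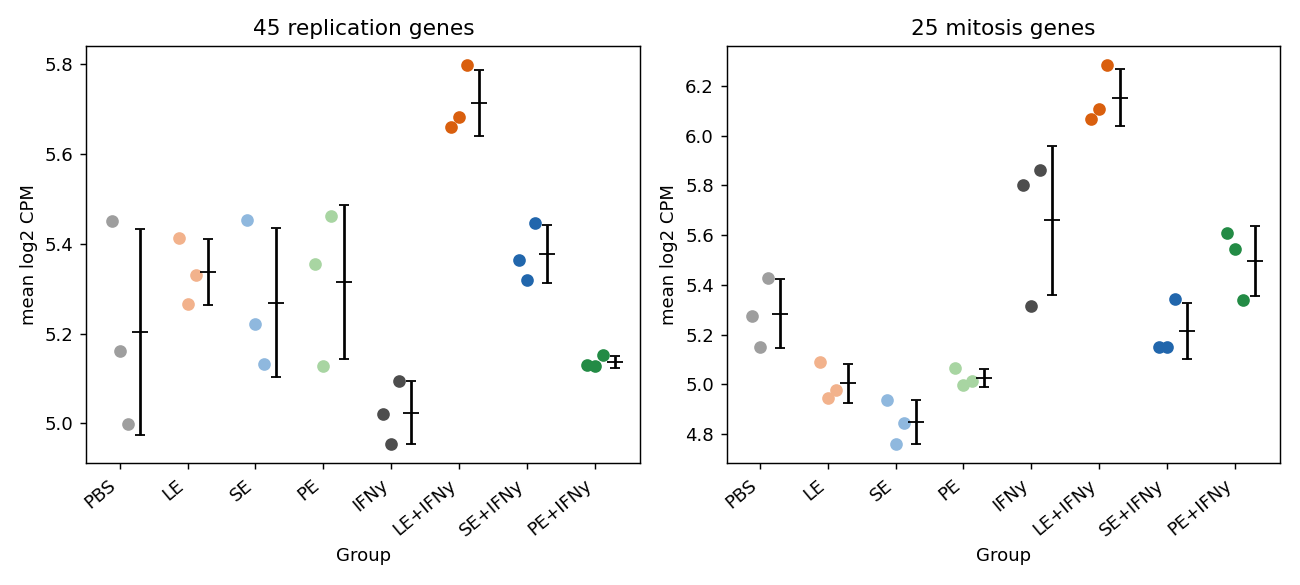
Mean log2 CPM of the 45 replication genes (left) and of 25 mitosis genes (right) in each letter-labelled library (points), with the mean and SD of each group of 3 libraries (black bars; IFNy stands for IFN-γ); the axes do not start at 0. From PBS to IFNy the mean of the left list goes from 5.20 to 5.02 and that of the right from 5.28 to 5.66, and from IFNy to SE+IFNy the left goes to 5.38 and the right to 5.21.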

How the data were processed

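RNA-seq of RAW264.7 cells was analysed from a table of raw counts of 49568 genes in 48 libraries, with 0 value columns left without a sample. The authors deposited these counts as made with featureCounts from uniquely mapped single-end reads on GRCm38.p5, and their processing notes name DESeq2 1.16.1 and R 3.4.1. The aligner was not given in the sources used here. Of the gene names, 26 had turned into dates and 4 repeated a name, none of them used here.

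The 24 letter-labelled libraries (3 in each of 8 groups) were tested with edgeR 4.0.16 in R 4.3.3. TMM scaling, filterByExpr and the quasi-likelihood test were used, with Benjamini-Hochberg adjustment over all genes tested. A gene was called at an adjusted p under 0.05 and a fold over 1.5. Each comparison used the libraries of its model, and interactions used all 24. Per-library log2 CPM used a prior count of 2. DESeq2 1.42.0 and RLE scaling, among others, were alternatives. The members and gene lists were chosen with earlier results of these data known. Values per library were given for the genes with the largest change in each role and in 4 comparisons, and at most 4 genes were named per further list. For a further list, of other nucleotide genes, only medians are given, and its single genes and counts are not reported here. Library totals ran from 16498562 to 26929356 counts. In data simulated for LE+IFN-γ against IFN-γ over 12720 genes, 91 of 100 genes changed by 1 on the log2 scale and 96 of 98 changed by 2 were called, with 1 false call. A chi-square of the counts, divided by its degrees of freedom, was at least 3.89 in each of 24 replicate pairs, so no library was counted as a repeat of another.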

Additional observations from a re-analysis of the deposited data

Results flagged for a closer look

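The effect of IFN-γ differed with LE present for 22 of the 45 genes and with SE present for 8, by the test of the interaction itself in edgeR over all 24 libraries. Over all genes tested 11.3% and 5.08% were called higher, and leaving out 1 library moved the SE count between 2 and 13. The same PBS and IFN-γ libraries enter both interactions. On the log2 scale the interaction with LE was 2.02 for Ccne2, 1.44 for Pola1, 1.24 for Lig1, 1.14 for Pole, 1.102 for Uhrf1 and 1.04 for Mcm6. It was 1.03 for Rfc5, 1.01 for Rrm1, 0.86 for Mcm10, 0.78 for Mcm7 and 0.75 for Gins1. With SE it was 2.01 for Ccne2, 0.95 for Lig1, 0.76 for Uhrf1, 0.73 for Mcm6, 0.71 for Pola1 and 0.68 for Pole. Groups of 3 libraries were not tested for a library far from the others.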

How the results depend on the processing

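With RLE scaling, DESeq2, no filter on low counts, 1 fit of 24 libraries or the replicate block, the number of the 45 genes called stayed within 1.5 times of that reported in all 16 comparisons (the 13 without an interaction for the fit of 24 libraries), except that without the filter PE against PBS had 1 gene lower. In the HLA-labelled libraries alone, as labelled, IFN-γ against PBS called 0, LE+IFN-γ against IFN-γ 9 lower, SE+IFN-γ against IFN-γ 0 and PE+IFN-γ against IFN-γ 9 lower. The libraries labelled IFN-γ and SE+IFN-γ showed no IFN-γ response and the labels may be exchanged, so these counts may not be of the named treatments. With the trend on length and GC content subtracted, an alternative chosen after seeing the data, PE+IFN-γ against PE called 8 and the SE interaction 4. The cause was not tested.

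Leaving out 1 library at a time gave 8 to 10 genes for IFN-γ against PBS, 28 to 31 for LE+IFN-γ, 7 to 11 for SE+IFN-γ and 0 to 0 for PE+IFN-γ against IFN-γ. It gave 3 to 9 for LE+IFN-γ against SE+IFN-γ, 23 to 25 for LE+IFN-γ against PE+IFN-γ and 3 to 7 for SE+IFN-γ against PE+IFN-γ. Against the peptide alone it gave 15 to 18 for LE, 5 to 9 for SE and 5 to 8 for PE. All these counts take both directions together. For IFN-γ against PBS, 6 genes were lower and 2 higher without PBS replicate 1. In that comparison 8 were lower and 1 higher without IFN-γ replicate 1, and 7 lower and 1 higher without IFN-γ replicate 2. The LE interaction ran from 17 to 25 and the SE interaction from 2 to 13.

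With the replicate block, IFN-γ against PBS called 7, LE+IFN-γ against IFN-γ 30, SE+IFN-γ against IFN-γ 10 and the LE interaction 22. The numbers were not taken as pairs, since the study's methods name no pairing. The letter labels do run through all groups once per replicate number (A to H, I to P and Q to X), but do not say what the libraries of a number share. The deviations of same-numbered libraries of 2 groups correlated at -0.11 to 0.23, with 25 of 84 pairs over 0.1. Their median was 0.049 against -0.023 for other numbers. Of the 24 libraries, 16 correlated best with their own number, a hint of pairing. Depth limits Ccne2 most, with 20 counts in its lowest library.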

Other observations

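In the 24 HLA-labelled libraries, whose IFN-γ targets went against the label in 12, the mean log2 CPM of the 45 genes was 4.45 to 4.98 in those labelled PBS, 5.33 to 5.52 for LE, 5.00 to 5.11 for SE and 5.42 to 5.56 for PE (3 libraries each). It was 4.78 to 5.32 in those labelled IFN-γ, 4.73 to 4.79 for LE+IFN-γ, 5.08 to 5.26 for SE+IFN-γ and 4.59 to 4.77 for PE+IFN-γ. The IFN-γ targets stood at 7.26 to 7.58 log2 CPM in the libraries labelled LE and PE and at 1.24 to 1.82 in those labelled IFN-γ and SE+IFN-γ. All these levels are given under the deposited labels, which may be exchanged: the targets went with the IFN-γ treatment of the letter columns to the left in the count table in 24 of 24 HLA columns, and with the HLA label in 12.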
